A study of Homo sapiens with 8 samples.

Results

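The late step of the adriamycin response was read in MCF10A p53+/+ cells by setting the array of cells harvested 48 h after treatment against the arrays of cells harvested at 12 h and 24 h. These were 3 of the 8 arrays of the series, chosen by their labels alone. Adriamycin (ADR, also called doxorubicin) intercalates into DNA and traps type II topoisomerase, which leaves double-strand breaks. MCF10A is a non-tumorigenic line of human mammary epithelial cells of basal kind, and p53+/+ marks cells with wild-type p53, the transcription factor that answers DNA breaks with cell cycle arrest. All 3 cultures had received ADR for 2 h, and the sample labels give 0.5 µg/ml. A higher dose stands in the methods of the paper, and which applied is unknown. The other arrays held p53+/+ cells at 0 h without ADR and p53-/- cells, which lack p53, at 0 h without ADR and at 12, 24 and 48 h after ADR. How the p53-/- line was derived, and whether it is 1 clone, is not given in the sources used here. Each condition had 1 array with the Cy3-labelled total RNA of 1 culture, so no difference below has a replicate error and none was tested. Levels below are log2 processed signals, each relative to the 75th percentile of its own array. The late step of a gene is its level at 48 h minus the mean of its levels at 12 h and 24 h. A late fall or late rise is a level at 48 h that was at least 2-fold below or above both earlier arrays. Of 20296 genes matched on the array, 13823 were well above background on at least 1 of the 3 arrays and were examined.

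The array labelled p53+/+ 48 h lacked spike-in signal. Spike-ins are synthetic RNAs added in known amounts during labelling, and 10 probes on each array read them. Of these probes, 6 were well above background on each of the other 7 arrays and 0 were on the p53+/+ 48 h array. The brightest spike-in probe gave a processed signal of 18614 at 12 h, 23191 at 24 h and 12.3 at 48 h, where the median negative control read 6.63. The amount of RNA therefore could not be compared through spike-ins, and a shift shared by all genes between 48 h and the earlier arrays could not be measured. The sample's own RNA was read on that array. The 75th percentile of its processed signal was 661, against 818 at 12 h and 816 at 24 h, and 52.7% of its probes were well above background, against 53.1% and 49.8%. No spot was saturated. The 8 arrays lay on 1 slide.

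**Figure D1:**
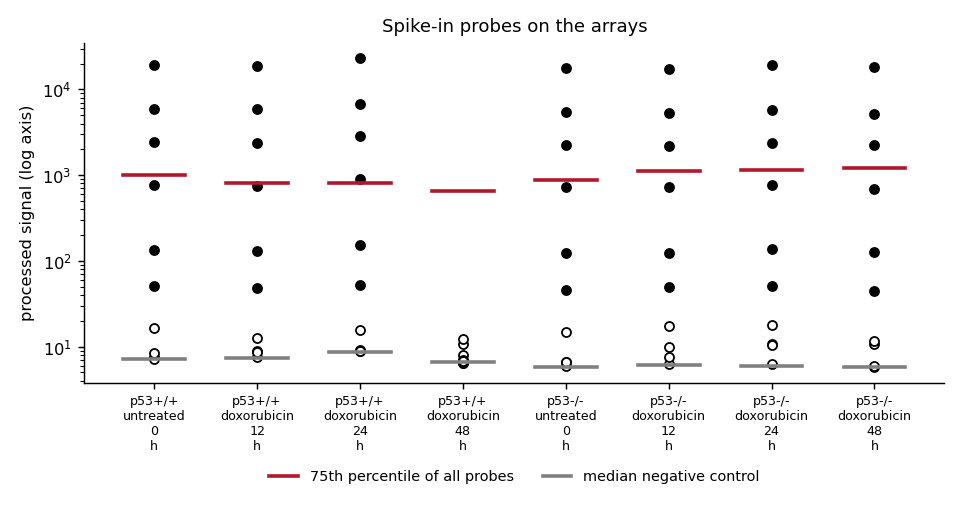
Processed signal (log axis) of the 10 spike-in probes on each of the 8 arrays (points, filled where well above background, open where not), with the 75th percentile of all probes (red bar) and the median negative control (grey bar). On the p53+/+ 48 h array all 10 points sit near the negative controls. Its 75th percentile of 661 is the lowest of the 8 arrays, where the others read from 816 to 1199.

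The labels were checked with a p53 target and with cell type markers. Levels are given in the order 12, 24 and 48 h here and below. CDKN1A, the p53-induced inhibitor of cyclin-dependent kinases, had log2 levels of 2.54, 2.63 and 2.70 with p53 and -0.96, -0.64 and -0.48 without it, so the 48 h array lay with the treated p53+/+ arrays. Of 12 markers chosen for the labelled cell type, all were above background at 48 h and 0 were late falls. Not all are particular to basal cells, as they include KRT8 and KRT18, keratins of luminal cells, at 3.74 and 6.33. TP63, the basal transcription factor, was a late rise, at least 1.49-fold higher and not well above background before. KRT5, a basal keratin, read 5.79, 6.05 and 6.54, and CDH1, the epithelial cadherin, read 1.42, 2.00 and 2.10. Among markers of other cells, 3 of 4 luminal, 1 of 7 fibroblast, 3 of 5 leukocyte and 2 of 4 endothelial genes were above background on at least 1 of the 3 arrays. The luminal markers ESR1 and PGR read -4.00 and -6.74 at 48 h, PGR not well above background, and GATA3 read -0.13. The leukocyte genes read -3.68 for PTPRC and 1.67 for CD14, and ITGAM was a late fall at -1.75, -1.79 and -3.76, 3.97-fold lower. The part of such cells in the results was not tested. The fibroblast gene above background was DCN, at 2.09, 2.28 and 2.37, while COL1A1, COL1A2 and COL3A1 were not well above background on any of the 3 arrays. The array labelled p53+/+ 0 h is not part of the comparison. It read -3.13 for CDH1 and 5.75 for DCN, near the -3.55 and 5.85 of the p53-/- 0 h array, and enters below only where all 8 arrays are counted.

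Cells that stop dividing lose the transcripts of S phase and mitosis in a coordinated way. After DNA damage p53 induces p21, the product of CDKN1A, which keeps retinoblastoma family proteins active. The DREAM complex of such a protein with E2F and the MuvB core then sits on promoters of cell cycle genes, reaching genes of DNA replication through E2F sites and genes of mitosis through an element called CHR, often beside CCAAT boxes bound by NF-Y. Cells that stay arrested can enter senescence, known for loss of lamin B1, changed chromatin proteins and secretion of cytokines and proteases.

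The promoters of 8 late falls are shown because their letters can be set beside the groups of genes described below. Each is the 200 bases before the transcription start listed farthest 5′ in RefSeq (build GRCh38.p14), read 5′ to 3′ on the gene's strand. Capitals mark 3 kinds of letters, each searched on both strands. The CHR-like letters were TTTGAA or alternatively TTCGAA, and the reverse of the former is written TTCAAA. The E2F-like letters were TTTGGCGC, TTTCGCGC, TTTCCCGC and TTTGGCGG, and GCGGGAAA is a reverse form. The box was CCAAT, which reads ATTGG in reverse. Windows that hold several of these count under each. The genes were picked from those named in the text after the matches were seen. TOP2A encodes topoisomerase II alpha, CCNB2 cyclin B2, HJURP the chaperone that loads the centromeric histone, and ANLN the cytokinesis protein anillin.
TOP2A (chr17:40417897-40418096, - strand): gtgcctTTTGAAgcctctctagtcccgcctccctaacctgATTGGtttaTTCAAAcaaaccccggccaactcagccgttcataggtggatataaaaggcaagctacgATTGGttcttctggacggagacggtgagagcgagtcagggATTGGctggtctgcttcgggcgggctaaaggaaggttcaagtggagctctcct
CCNB2 (chr15:59104946-59105145, + strand): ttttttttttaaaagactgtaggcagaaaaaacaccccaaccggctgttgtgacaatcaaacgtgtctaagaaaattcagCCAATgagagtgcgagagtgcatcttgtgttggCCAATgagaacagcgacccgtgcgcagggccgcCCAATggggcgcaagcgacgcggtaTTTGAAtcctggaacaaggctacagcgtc
HJURP (chr2:233854536-233854735, - strand): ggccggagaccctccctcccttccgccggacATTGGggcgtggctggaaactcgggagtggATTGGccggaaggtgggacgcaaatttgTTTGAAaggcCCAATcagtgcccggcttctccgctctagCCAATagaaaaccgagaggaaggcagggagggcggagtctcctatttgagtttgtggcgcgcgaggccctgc
ANLN (chr7:36389662-36389861, + strand): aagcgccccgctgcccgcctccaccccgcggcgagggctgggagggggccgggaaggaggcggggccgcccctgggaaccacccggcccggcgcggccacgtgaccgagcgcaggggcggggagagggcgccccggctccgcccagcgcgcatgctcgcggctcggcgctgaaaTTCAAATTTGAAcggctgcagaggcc
The next 4 are genes of S phase. CDT1 loads the replicative helicase, DTL is the ubiquitin ligase subunit that removes CDT1, GINS2 is a helicase subunit, and E2F1 is a transcription factor of S phase genes.
CDT1 (chr16:88803589-88803788, + strand): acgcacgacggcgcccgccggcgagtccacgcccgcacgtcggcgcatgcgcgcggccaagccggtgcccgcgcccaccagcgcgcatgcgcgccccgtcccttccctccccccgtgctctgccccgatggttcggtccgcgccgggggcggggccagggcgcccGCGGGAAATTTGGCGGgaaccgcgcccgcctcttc
DTL (chr1:212035548-212035747, + strand): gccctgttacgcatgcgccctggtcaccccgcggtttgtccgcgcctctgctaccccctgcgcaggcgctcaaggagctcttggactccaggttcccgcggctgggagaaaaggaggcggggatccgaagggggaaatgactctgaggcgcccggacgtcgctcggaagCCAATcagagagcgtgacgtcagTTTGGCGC
GINS2 (chr16:85688955-85689154, - strand): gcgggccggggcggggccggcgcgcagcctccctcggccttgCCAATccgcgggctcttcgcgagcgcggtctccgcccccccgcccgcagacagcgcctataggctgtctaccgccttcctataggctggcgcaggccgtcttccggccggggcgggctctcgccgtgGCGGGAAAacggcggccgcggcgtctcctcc
E2F1 (chr20:33686386-33686585, - strand): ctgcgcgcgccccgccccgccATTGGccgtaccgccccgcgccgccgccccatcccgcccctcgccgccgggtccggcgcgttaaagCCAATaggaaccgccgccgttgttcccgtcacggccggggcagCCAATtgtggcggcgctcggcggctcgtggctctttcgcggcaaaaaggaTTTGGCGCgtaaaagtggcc
The TTTGAA of CCNB2 lies 29 to 24 bases before the start, with CCAAT at 54 to 50 and at 87 to 83 bases. In HJURP the CHR-like letters lie 111 to 106 bases before the start, followed by CCAAT at 101 to 97. ANLN holds TTCAAA and TTTGAA directly after each other, from 26 to 15 bases before the start. The E2F-like letters of DTL end at the base before the start, and CDT1 holds 2 such matches between 35 and 20 bases before it.

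Counted over windows of 300 bases, from 250 before to 50 after the start, 56 of 79 promoters (70.9%) of the late falls in the mitosis lists held CHR-like letters, against 16.7% of all 27303 promoters in the table. Both CHR-like letters and CCAAT stood in 40 of these 79 promoters (50.6%), against 6.63% of all. E2F-like letters stood in 11 of the 79 (13.9%). For the late falls of the DNA replication list the counts were turned: 17 of 29 promoters (58.6%) held E2F-like letters, against 3.42% of all, and 0 of 29 held CHR-like letters. CCAAT stood in 65.8% of the mitosis promoters, in 58.6% of the replication promoters and in 35.7% of all. Over the examined genes that have a promoter in the table the shares were 11.7% for CHR-like, 37.0% for CCAAT and 5.49% for E2F-like letters. A match describes letters in these windows only. The table held a promoter for 84.9% and 82.9% of the falls in these groups and for 79.6% of examined genes. It held one for only 76.3% of all late falls and 76.1% of late rises. At under 80% the shares over examined genes, all falls and all rises are void as a check. As values, CHR-like letters stood in 30.1% of the promoters of all falls and 15.9% of those of rises, and E2F-like letters in 16.2% and 2.39%.

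At the gene level the 48 h array differed from both earlier arrays by at least 2-fold at 549 genes below (3.97% of genes examined) and 330 genes above (2.39%). Of the called genes, 62.5% were falls, and without any scaling of the arrays this share was 83.4%. With signals below the dimmest measurable probe of an array held at that probe, the smaller of the 2 differences was at least 16-fold at 41 falls and 0 rises, and at least 64-fold at 1 fall, BIRC5. With such signals at face value it was at least 16-fold at 68 falls and 5 rises. Between 12 h and 24 h, 474 genes (3.43%) were lower and 622 (4.5%) were higher by at least 2-fold, so the earlier arrays were not identical either. Against 24 h alone, 879 genes (6.36%) were lower and 689 (4.98%) higher at 48 h, and against 12 h alone 966 (6.99%) were lower and 956 (6.92%) higher. Of the 549 falls, 495 (90.2%) differed by less than 2-fold between 12 h and 24 h, near the 92.1% of all genes examined, and their median difference was -0.09 on the log2 scale. At 421 of the 549 falls the 48 h level was the lowest of all 8 arrays, and at 219 of the 330 rises it was the highest. The rule already sets the 48 h level beyond both earlier p53+/+ arrays, so these counts are partly fixed by it. The same share over all genes was not counted. The median late step of all genes was 0.12. The late step of a probe in 1 spot had a technical SD, from 999 probes printed in 10 spots, of 0.08 above level 0, 0.12 from -3 to 0, 0.36 from -5 to -3 and 0.46 below -5. This covers differences between spots, not between cultures, labelling reactions or arrays.

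**Figure D2:**
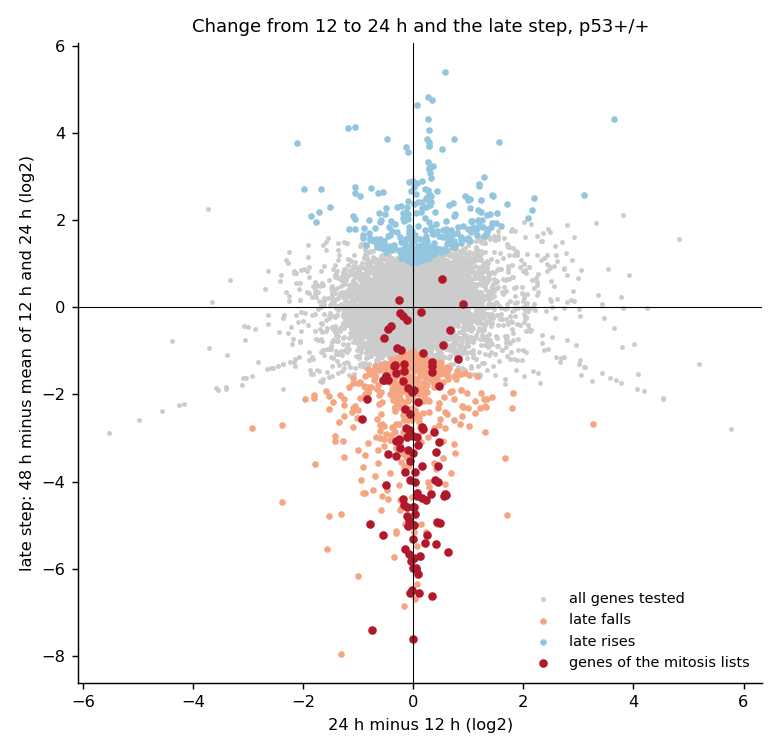
Each point is 1 gene in p53+/+ cells, with the log2 difference of 24 h from 12 h on the x axis and the late step (log2, 48 h minus the mean of 12 h and 24 h) on the y axis. Genes of the mitosis lists (dark red) stand in a column near 0 on the x axis, with a median of -0.01, and reach down to a late step of -7.61, where signals not well above background at 48 h are drawn at face value.

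The late falls were ranked by the smaller of their 2 differences with signals below background at face value, and all 10 genes at the head were not well above background at 48 h. Their order, and their place before falls that stayed measurable, is therefore not established. All 10 are known from dividing cells. BIRC5 encodes survivin, a subunit of the chromosomal passenger complex. It had log2 levels of 2.85 and 2.86 and then of -4.76, not well above background, so that it was at least 178-fold lower at 48 h. Without p53 it read 4.77, 5.01 and 5.48. RRM2, the regulated subunit of ribonucleotide reductase, read 2.08, 0.77 and -6.53 and was at least 66.1-fold lower. It had already been lower at 24 h than at 12 h, which was not so for BIRC5. CDT1 read 1.22, 1.29 and -5.11 and was at least 58.9-fold lower. UBE2C, the ubiquitin-conjugating enzyme of the anaphase-promoting complex, read 1.11, 1.09 and -5.38 and was at least 52.9-fold lower. FOXM1, the transcription factor of G2 and M phase genes, read 0.88, 0.91 and -5.81 and was at least 45.9-fold lower. For these 5 genes the bound is set by the dimmest probe that still stood above background at 48 h, at a log2 level of -4.63, so the actual difference may be larger.

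The other 5 at the head of the ranking were SPC25, HJURP, SHCBP1, TOP2A and ANLN. SPC25, a subunit of the NDC80 complex that ties kinetochores to microtubules, read 1.02, 0.27 and -6.77 and was at least 38.5-fold lower at 48 h. HJURP read 0.31, 0.26 and -6.28 and was at least 30.1-fold lower. SHCBP1, which takes part in midbody function, read 0.23, 0.06 and -6.71 and was at least 27.3-fold lower. TOP2A, the topoisomerase that ADR traps and whose promoter is printed above, read -0.04, 0.30 and -6.50 over 10 spots and was at least 27.0-fold lower. ANLN read -0.30, -0.20 and -6.81 and was at least 20.7-fold lower. Without p53 all 10 were above background at 48 h, at levels of 1.16 or more, and their late steps lay between -0.31 for SPC25 and 0.78 for UBE2C. The difference between the genotypes was not tested.

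**Figure D3:**
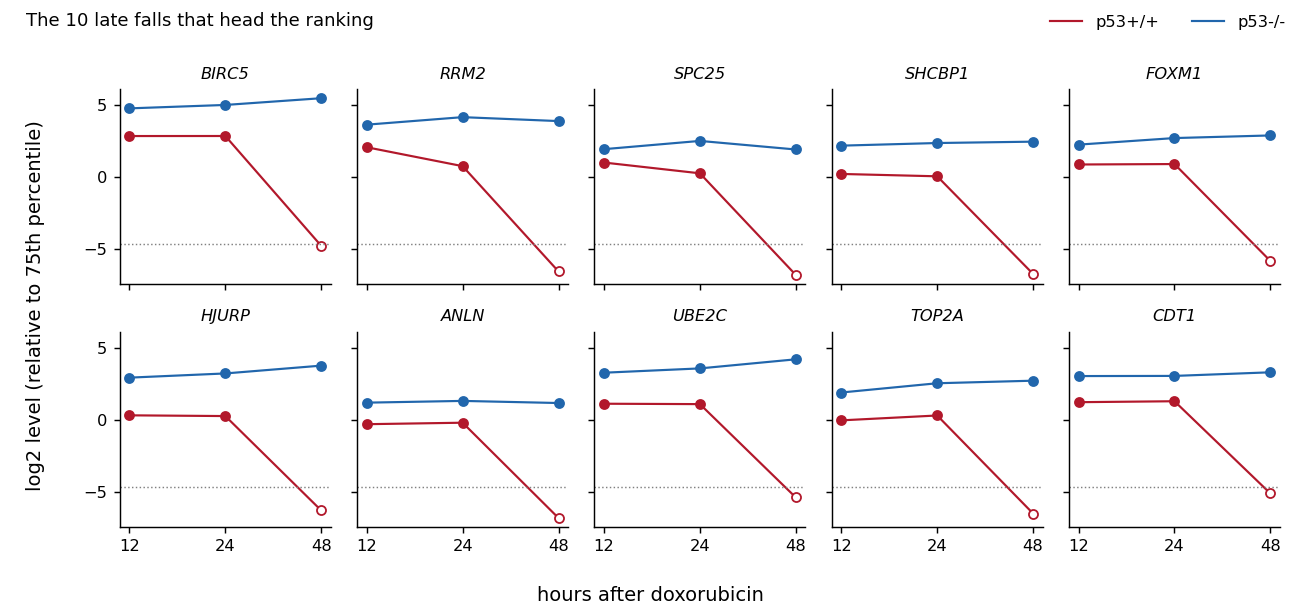
Log2 level (relative to the 75th percentile of the array) against hours after ADR for the 10 genes at the head of the ranking of late falls, in p53+/+ cells (red) and p53-/- cells (blue), 1 array per point. Filled points were well above background and open points were not, and the dotted line at -4.63 is the dimmest probe above background on the p53+/+ 48 h array. All 10 red 48 h points are open and below the line.

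Of the 41 falls of at least 16-fold with dim signals held as above, 35 belonged to the lists of cell cycle and DNA repair genes. Of all 549 late falls, 167 belonged to them, so most late falls lay outside these lists. The share of all genes examined that these lists hold was not counted. The lists were drawn up with earlier results of the data known, so the counts are a description. Over the 4 mitosis lists together, 93 of 109 genes were late falls and 0 were late rises, with a median late step of -3.34. The same genes had a median difference of -0.01 between 12 h and 24 h. In p53-/- cells their median late step was 0.35, with 0 falls and 2 rises, where 0.604% of all genes were falls and 5.24% were rises. In bulk RNA, fewer cells that express a gene and less RNA of it per cell cannot be told apart. Since 43 of the 109 genes were not well above background at 48 h, the median was also taken with such genes at their bound, and was then -2.97.

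Of mitotic kinases and cyclins, 19 of 23 were late falls with a median of -3.23, or -2.87 at the bounds. BUB1, a kinase of the spindle checkpoint, read -0.58, -0.63 and -6.43 and was at least 16.2-fold lower. PKMYT1, which holds CDK1 inactive, stayed measurable at 3.97, 3.89 and -1.74, 50.8-fold lower. CCNB2 read 1.85, 2.10 and -3.25, 37.4-fold lower, and the checkpoint kinase TTK read -1.55, -1.14 and -6.79, at least 9.71-fold lower. CDK1 itself, the kinase that drives entry into mitosis and was added here after its values were seen, read 2.07, 1.97 and -2.99 over 10 spots, 32.3-fold lower. The 4 members that were no late falls were CCNF, CDC25B, WEE1 and CKS2, with late steps of -0.69, 0.08, -0.53 and -0.30. CCNF was above background at 12 h only.

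Of kinetochore and centromere genes, 28 of 31 were late falls with a median of -3.53, or -2.97 at the bounds. Beside SPC25 and HJURP these were led by CENPU, a protein of the inner kinetochore, at 2.16, 2.22 and -3.82, 64.5-fold lower. OIP5, which with partners prepares centromeres for new centromeric histone, read 1.09, 1.10 and -4.66 and was at least 52.7-fold lower. Members that were no late falls included MIS18A, with a late step of -0.93, and BUB3. BUB3, which has further roles outside the checkpoint, was the highest of the list with a late step of 0.64.

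Of spindle and cytokinesis genes, 30 of 32 were late falls with a median of -4.28, or -3.49 at the bounds. CEP55, which organises the cut between daughter cells, read 0.27, 0.26 and -5.73 and was at least 29.7-fold lower. CKAP2L, a spindle protein, read -0.84, -0.76 and -6.93 and was at least 14.2-fold lower. CKAP2 and FAM83D missed the rule with late steps of -1.04 and -1.19, both still below 0. FAM83D was higher at 48 h in p53-/- cells by 1.27.

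Of genes of the anaphase-promoting complex, cohesin and condensin, 16 of 23 were late falls with a median of -2.11, or -1.66 at the bounds. CDCA5, which protects cohesion until anaphase and is also named sororin, read 2.17, 2.21 and -3.80 over 10 spots, 63.8-fold lower. SGO1, the guardian of centromeric cohesin, read -1.84, -1.82 and -6.83 and was at least 6.94-fold lower. Of the cohesin complex itself, SMC3, RAD21, STAG1 and STAG2 were no late falls, with late steps of -0.13 for SMC3, -0.11 for RAD21, -0.42 for STAG1 and -0.19 for STAG2. STAG1 was above background at 12 h only. SMC1A, which closes the ring with SMC3, was a late fall at -1.34. PTTG1, the inhibitor of separase, read 6.19, 6.74 and 5.59, a late step of -0.87.

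Transcription factors of the cell cycle were split. Of 21 E2F, MYB-like and DREAM genes, 8 were late falls and 0 rises, with a median of -0.32. Beside FOXM1, E2F1 read -1.08, -2.61 and -6.65 over 10 spots and was at least 6.86-fold lower, and E2F2 read -0.57, -1.89 and -5.99 and was at least 10.5-fold lower. Both had dropped by over 2-fold between 12 h and 24 h, before the late step. MYBL2, the B-MYB subunit that joins MuvB to activate mitotic genes, read 0.32, -0.59 and -3.80, 12.6-fold lower. The further falls were E2F8, MYBL1, LIN9 and RBL1. Of repressing E2F and pocket proteins, E2F4, E2F5, E2F6, E2F7, RBL2 and RB1 were not called. Their late steps were 0.17, 0.02, 0.43, -0.58, -0.09 and -0.10. E2F8, also a repressing E2F, was a late fall at -3.19. The pocket protein RBL1 was a late fall at -1.41. Of the MuvB core LIN37, LIN52, RBBP4 and LIN54 were not called, at 0.39, 0.49, 0.47 and -0.90. LIN9 of that core was a late fall at -1.48.

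Of 58 DNA replication genes, 35 were late falls and 0 rises, with a median of -1.66, or -1.50 at the bounds. The other 23 missed the rule. Over all 58 genes the median difference between 12 h and 24 h was -0.28, and 8 of the 58 had already fallen by 2-fold in that interval. Beside CDT1, GINS2 read 0.69, -0.32 and -5.98 over 10 spots and was at least 28.1-fold lower. DTL read 1.74, 1.39 and -4.17 over 10 spots, 53.4-fold lower, and DSCC1, a subunit of a clamp loader, read -1.25, -1.41 and -6.30 and was at least 9.84-fold lower. The promoters of CDT1, GINS2 and DTL are printed above with their E2F-like letters. Members that were no late falls included PCNA, the sliding clamp and also a p53 target, with a late step of -0.77, and the origin recognition subunits ORC2, ORC3, ORC4 and ORC5 with 0.30, -0.15, -0.39 and 0.49. ORC1 and ORC6 of the same complex were late falls at -3.27 and -4.36. Without p53 the median of the 58 genes was -0.14, with 2 late falls.

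Of 20 genes of nucleotide supply, 5 were late falls and 0 rises, with a median of -0.19. Beside RRM2, TK1, the S phase thymidine kinase, read 6.30, 6.72 and 1.52, 31.7-fold lower, and RRM1, the large subunit of ribonucleotide reductase, read 3.97, 4.13 and 2.11, 3.82-fold lower. SHMT1, which feeds serine carbon into folate, was a late fall with a late step of -1.44. The 15 members that were not called lay between -0.89 for DCK, which phosphorylates deoxynucleosides, and 0.80 for CAD, which starts pyrimidine synthesis. RRM2B, the p53-induced partner of RRM1, read 2.20, 2.70 and 1.86, a late step of -0.59.

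Of 30 genes of homologous recombination and the Fanconi anemia pathway, 20 were late falls and 0 rises, with a median of -2.23, or -1.68 at the bounds, and 11 were not well above background at 48 h. RAD54L, a motor protein of strand exchange, read 0.26, 0.49 and -4.80 and was at least 32.0-fold lower. EXO1, the exonuclease of end resection, read 0.66, 0.19 and -3.98 over 10 spots, 21.2-fold lower. RAD51AP1, a cofactor of strand exchange, read -1.92, -2.13 and -6.62 and was at least 6.06-fold lower. FANCA, of the Fanconi core complex, read -1.32, -1.56 and -5.86 over 10 spots and was at least 9.10-fold lower. Members above 0 were PALB2, RAD51D, RBBP8, FANCE and FANCF, with late steps from 0.21 for RBBP8 to 0.57 for FANCF. Without p53 the median was -0.20 with 0 falls.

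Replication-dependent histone genes were mostly not called, with 8 of 61 late falls, 1 late rise and a median of -0.02. H3C15 was the lowest at 2.25, 2.85 and -1.71, 19.2-fold lower. H1-1 read 1.46, 0.20 and -2.60, 10.8-fold lower, H1-5 was at least 8.70-fold lower, and H3C2 read 0.49, 0.47 and -1.31, 3.46-fold lower. H4C16, the rise, was above background only at 48 h among the 3 arrays, at -3.88, at least 1.70-fold higher. Histone genes are near copies of each other, so a probe may read more than the gene it is named for.

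**Figure D4:**
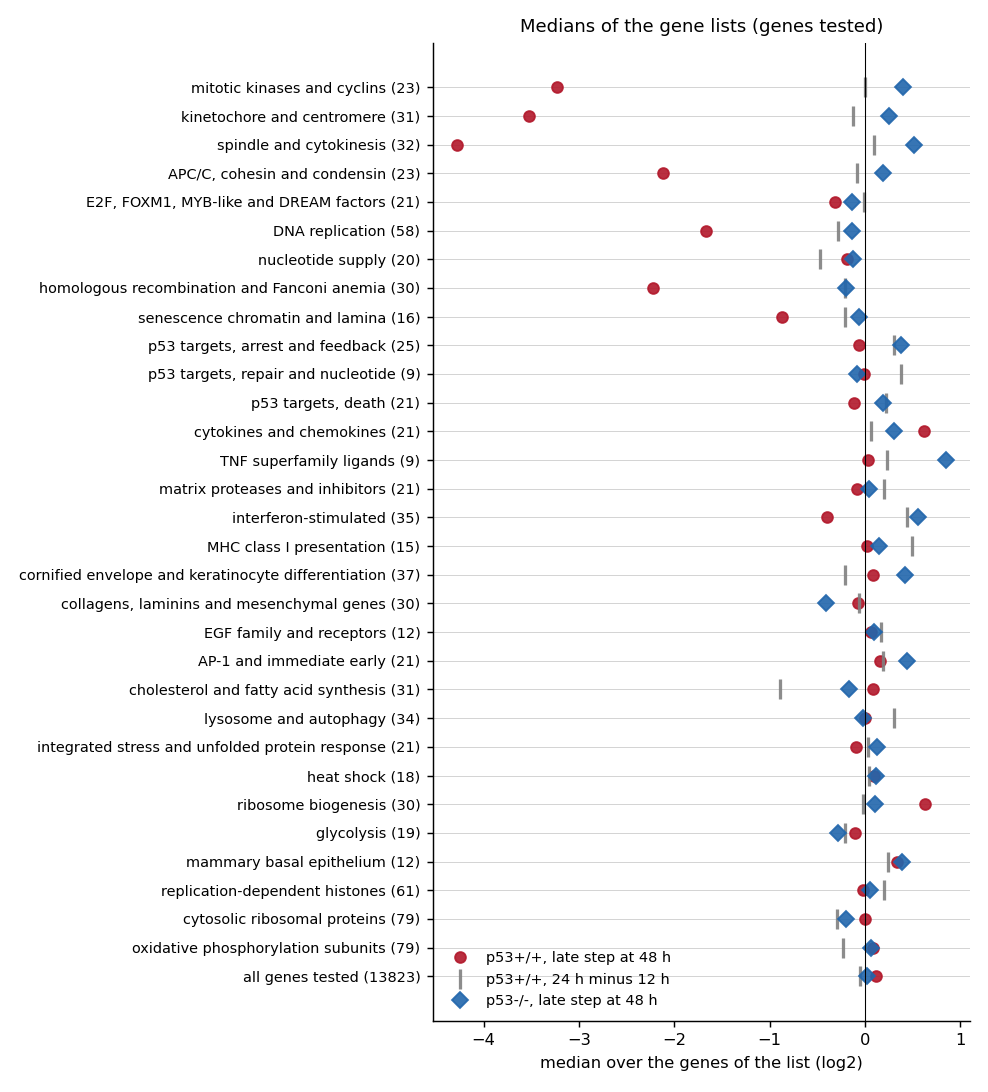
Median over the genes of each list, with the number examined in parentheses, of the late step in p53+/+ cells (red circles), of 24 h minus 12 h in p53+/+ cells (grey bars) and of the late step in p53-/- cells (blue diamonds), on the log2 scale. The red circles of the mitosis, replication and recombination lists lie between -4.28 and -1.66, while their grey bars and blue diamonds stay between -0.28 and 0.51.

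Most genes of the p53 target lists missed the 2-fold rule, as did 12944 of all 13823 genes examined. Of 25 genes listed under arrest and feedback, 1 was a late fall (4.0%, against 3.97% of all genes). None was a late rise, against 2.39% of all genes, and the median was -0.06. CDKN1A read 2.54, 2.63 and 2.70, a late step of 0.12, and MDM2, the ubiquitin ligase that limits p53, read 1.29, 1.49 and 1.76, a late step of 0.37. GDF15, a secreted stress factor added after its values were seen, read 8.83, 9.02 and 8.97. Among members below 0, BTG1, a brake on proliferation also added afterwards, read 2.48, 2.99 and 1.63, a late step of -1.11 that missed the rule against 12 h. The fall was CDKN1C, the p57 inhibitor of cyclin-dependent kinases, at -0.25, 0.19 and -1.47, 2.71-fold lower. Of 9 targets of repair and 21 of cell death, 0 were called in either direction, with medians of -0.01 and -0.11. CDC42BPG, a kinase that acts with CDC42, read -2.43, -1.95 and -2.13. TNFSF9, which encodes CD137L, the ligand of the T cell receptor CD137, read 3.44, 3.67 and 3.60, a late step of 0.05, and the 9 TNF superfamily ligands examined held 0 calls. FST, which encodes the activin-binding follistatin, read -0.91, -0.70 and -1.26, a late step of -0.45.

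Senescence-linked chromatin and lamina genes were lower in part. Of 16, 6 were late falls and 1 was a late rise, with a median of -0.87. LMNB1, which encodes lamin B1, went down at each step, at -0.12, -1.18 and -2.91, and was 4.81-fold below the earlier mean at 48 h. HMGB2, a chromatin protein of dividing cells, read 1.63, 1.33 and -0.55, 4.07-fold lower. SUV39H1, a histone H3 lysine methyltransferase, read -1.28, -1.28 and -3.28, 3.99-fold lower, while its other probe had a late step of -0.86 and was not called. H2AZ1 read 5.40, 4.99 and 3.74, 2.73-fold lower. EZH2 and HMGB1 completed the falls at -1.22 and -1.11. The other lamins were level, with late steps of -0.03 for LMNA and 0.30 for LMNB2. HMGA2, a chromatin protein found in senescent foci and in proliferating mesenchymal cells, was the rise at -0.44, -0.14 and 0.91, 2.30-fold higher, and in p53-/- cells its late step was -1.20. The other 2 probes of HMGA2 were not called, with late steps of 0.48 and 1.04.

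Cytokines and chemokines moved in both directions. Of 21, 2 were late rises (9.52%, against 2.39% of all genes) and 3 late falls (14.3%, against 3.97%). A late step above 0 was read at 16 of the 21 and at 8294 of all 13823 genes. The medians were 0.62 and 0.12. CXCL1, a neutrophil chemokine, read 2.25, 2.29 and 4.44, 4.51-fold higher at 48 h, and TNFAIP3, the A20 inhibitor of NF-kB, read 0.01, 0.08 and 1.09, 2.07-fold higher. Both are known targets of NF-kB. IL11 read -0.23, -0.47 and -3.52, 9.05-fold lower. IL1RN, the natural antagonist of interleukin 1, read -0.71, -0.83 and -2.61, 3.58-fold lower, while its other probe had a late step of -0.01 and was not called. IL33 read -1.71, -2.20 and -3.41, 2.74-fold lower. IL1RN and IL33 had late steps of the other sign in p53-/- cells, 2.54 and 1.16, and the difference was not tested. IL1B read 4.15, 5.13 and 5.64 and missed the rule against 24 h.

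Among matrix proteases and their inhibitors 2 of 21 were late rises and 2 late falls. The protease inhibitors SERPINB3 and SERPINB4, near copies of each other whose probes may share signal, were higher at 48 h. SERPINB3 read -4.43, -6.55 and -1.71, not well above background at 12 h or 24 h, and was at least 6.77-fold higher. SERPINB4 read -4.14, -6.12 and -2.40, not well above background at 24 h. MMP10 read -3.94, -3.20 and -6.70 and was at least 2.08-fold lower, and MMP7 was at least 1.28-fold lower by its bound. Of 30 collagen, laminin and mesenchymal genes, POSTN, which encodes periostin, read -0.78, -3.16 and -6.45 and was at least 6.29-fold lower, and COL4A1 read 0.18, 0.09 and -1.25, 2.61-fold lower. These were also late falls in p53-/- cells, by 2.34 and 1.37 on the log2 scale.

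Interferon-stimulated genes had a median late step of -0.40 after a median of 0.44 between 12 h and 24 h, and against 12 h alone the former was 0.01. Of 35, 4 were late falls and 0 late rises, against 4 that had gone up by 2-fold from 12 h to 24 h. IFIT1, an RNA-binding antiviral protein, read -2.17, -1.31 and -3.63, 3.72-fold lower, and IRF7, the factor of interferon induction, read 1.77, 1.66 and 0.28, 2.71-fold lower. OAS3 read -0.24, 0.22 and -1.38, 2.57-fold lower, while its other probe had a late step of -0.31 and was not called. IFI44 was at least 2.50-fold lower. Without p53 8 of 37 were late rises and 0 late falls, with a median of 0.56, and IFIT1 had a late step of 2.78 there. The 15 genes of MHC class I presentation held 0 calls, with a median of 0.03.

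Keratinocyte differentiation genes held calls of both signs among 37 examined, 5 rises and 3 falls, with a median of 0.09. The rises were S100 proteins of the inflamed epidermis and elafin. S100A8 read 3.39, 2.33 and 5.50, 6.20-fold higher, and its partner S100A9 read 0.49, -0.48 and 2.55, 5.84-fold higher. S100A12 read -4.16, -4.01 and -1.89, 4.57-fold higher, and PI3, the elafin gene, read 0.56, 0.76 and 2.71, 4.14-fold higher. S100A7 completed the rises with a late step of 1.83. Without p53 the late steps of S100A8, S100A9, S100A12 and PI3 were 2.11, 1.59, 1.81 and 2.56, and all 4 were late rises there by the same rule. S100A7 was not called there, with a late step of 0.68. The falls were of other function: SBSN, a secreted protein of the upper epidermis, read 0.38, 0.47 and -2.12, 5.82-fold lower, SPRR3, an envelope precursor, was at least 5.03-fold lower, and ZNF750, a differentiation factor, was at least 2.29-fold lower.

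Of 30 ribosome biogenesis genes, 3 were late rises, 0 were late falls and 27 missed the rule. Of the 30, 28 had a late step above 0, as had 8294 of all 13823 genes. The median was 0.63 against 0.12 over all genes and 0.10 for the same list in p53-/- cells. NOP14, of the small subunit processome, read 1.0, 1.01 and 2.52, 2.86-fold higher, while its other probe had a late step of 0.78 and was not called. BOP1, of large subunit assembly, read 1.55, 1.06 and 2.57, 2.40-fold higher, and NOLC1 read 1.66, 1.62 and 2.67, 2.04-fold higher. MYC, the transcription factor that drives this program in dividing cells, read 2.71, 3.33 and 4.71 over 10 spots, 3.22-fold higher, and its late step in p53-/- cells was -0.04. KLF6, the other late rise among 21 AP-1 and immediate early genes, read 2.61, 2.87 and 4.14, 2.65-fold higher. The 79 cytosolic ribosomal protein genes examined held 0 calls and a median of 0.00. Without scaling of the arrays every late step shifts by -0.30, so that the median of all genes is -0.19, while the medians of the ribosome biogenesis and cytokine lists stay above 0.

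Metabolic and stress lists held few calls in number, though not always a smaller share than all genes, of which 3.97% were late falls and 2.39% late rises. Of 31 genes of cholesterol and fatty acid synthesis, 10 had fallen by 2-fold between 12 h and 24 h, with a median of -0.89, and at 48 h the median stood 0.63 above 24 h and -0.51 against 12 h. HSD17B7 was the only late fall of that list, at 1.02, 0.90 and -0.31, 2.42-fold lower. Of 21 genes of the integrated stress and unfolded protein response, 2 were late falls (9.52%). PHGDH, which starts serine synthesis, read 1.09, 0.46 and -2.50, 9.72-fold lower, and SLC7A11, the cystine transporter, read 1.50, 0.41 and -0.66, 3.06-fold lower. SLC7A11 was also a late fall in p53-/- cells, by 1.89 on the log2 scale, and PHGDH was not, with a late step of 0.13. Of 34 genes of the lysosome list, 1 was a late rise and 1 a late fall (2.94% each). GAA, the acid alpha-glucosidase, read 2.65, 4.16 and 5.35, 3.84-fold higher, and CTSL, a cathepsin, read 4.65, 4.63 and 3.45, 2.28-fold lower. Heat shock genes (18), glycolysis (19) and EGF family genes (12) held 0 calls. Of 79 oxidative phosphorylation genes, COX7B2 alone was called, above background only at 48 h among the 3 arrays and at least 2.27-fold higher, and it was a late rise in p53-/- cells too.

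**Figure D5:**
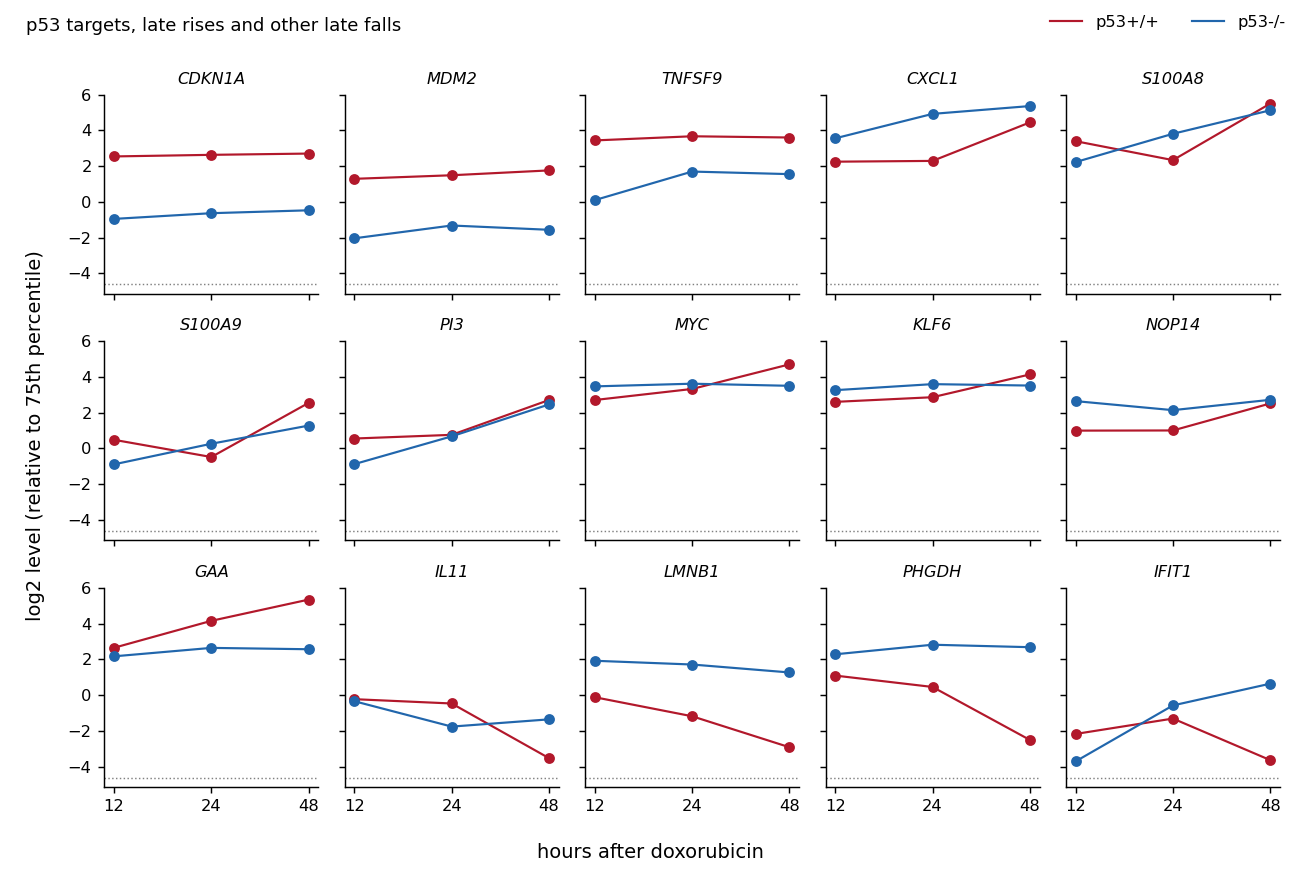
Log2 level (relative to the 75th percentile of the array) against hours after ADR in p53+/+ cells (red) and p53-/- cells (blue), 1 array per point, of 3 p53 targets, 8 late rises and 4 late falls. The red lines of CDKN1A, MDM2 and TNFSF9 differ by less than 2-fold, those from CXCL1 to GAA are highest at 48 h, and those of IL11, LMNB1, PHGDH and IFIT1 are lowest there, with the dotted line at -4.63 as the dimmest probe above background on the p53+/+ 48 h array.

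The late rises that head the ranking were dim before 48 h. The first 10 were CALHM6, OR6B1, FIGN, ADARB2, FAM168A, LIPM, KRTAP10-7, UACA, RBM44 and KIAA1549L. All 10 were printed in 1 spot and were not well above background at 12 h or 24 h, and 4 of them were above background on no other of the 8 arrays. CALHM6, a channel protein of immune synapses, read -6.43, -5.86 and -0.73 and was at least 15.0-fold higher. KIAA1549L read -4.56, -4.65 and -1.05 and was at least 11.2-fold higher. The bounds of the other 8 lay between 3.06-fold for RBM44 and 7.94-fold for OR6B1, an odorant receptor gene. Over all 330 rises, 181 were not well above background at both earlier times, 137 of these in 1 spot, and 40 were above background only on the 48 h array. With signals held at the floor of each array, 464 of the falls and 220 of the rises stayed past the 2-fold rule. Where a called gene had other probes, 72 of 116 probes of falls were called the same way, 106 had the same sign and 1 was called the opposite way. Of 67 such probes of rises, 17 were called the same way and 59 had the same sign.

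Only 129 late rises were above background on all 3 arrays, and these were ranked after the values had been seen. Beside those named above, IGFBP2, a binding protein of insulin-like growth factors, read 0.37, 1.56 and 3.75, 6.90-fold higher, and SAA2, an acute phase protein, read -0.75, 0.25 and 2.26, 5.69-fold higher. Both were late rises in p53-/- cells too. INHBA, the activin A subunit, read 0.67, 2.11 and 3.97 over 10 spots, 5.95-fold higher, with a late step of 0.15 in p53-/- cells. EHF, an epithelial transcription factor, read -3.63, -1.45 and -0.02, 5.73-fold higher. INHBA and EHF thus climbed at both steps, while CXCL1 and NOP14 differed by 0.04 and 0.01 between 12 h and 24 h. The nuclear RNA MALAT1 read 0.11, 0.65 and 2.15, 3.40-fold higher.

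Structural RNAs that are no messengers were also among the late rises of the array without spike-in signal. The ribosomal RNA gene RNA5-8SN5 read 0.49, 2.10 and 3.17, 3.66-fold higher. RPPH1, the RNA of ribonuclease P, was 2.63-fold higher, RN7SL1, the RNA of the signal recognition particle, 2.43-fold, and the spliceosomal RNU2-1 2.35-fold. In p53-/- cells the late steps of these 4 were 0.14, 0.41, 0.12 and 0.23. The 4 were chosen after their values were seen, and by class 1 of 5 small nuclear RNA genes, 1 of 3 ribosomal RNA genes and 0 of 14 small nucleolar RNA genes examined were called. The part of RNA quality or labelling on that array in the results was not tested.

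Of the 549 falls, 521 could be examined in p53-/- cells, where 10 were late falls (1.92%), 22 were late rises (4.22%) and the median late step was 0.14. Of the 330 rises, 281 could be examined there, 73 were late rises (26%) and 0 late falls, and the median was 0.41. Of all 13546 genes examined in both genotypes, 66 were late falls and 331 late rises in p53-/- cells, with a median of 0.02. Over all genes examined in p53-/- cells, also those not examined in p53+/+ cells, these shares were 0.604% and 5.24%. The median was 0.05. The comparisons share no array, but each rests on 1 array per time, and the difference between the genotypes was not tested.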

How the data were processed

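MCF10A RNA was measured on 8 single-colour Agilent arrays. The authors deposited the scanner output, whose processed signal is an intensity on a linear scale, already background-corrected. The submitters' processing notes name Agilent Feature Extraction 10.7.3.1, and the file headers name the build hg19. The deposited table of the series held the same values (503808 of 503808 equal). No normalization between arrays is given in the sources used here. From these intensities log2 values were computed, minus the log2 75th percentile of non-control spots of each array. Spots marked uneven or as outliers were left out and spots of a probe averaged. Of 42391 probes, 27227 were matched by transcript accession to 20296 genes of RefSeq (GRCh38.p14), and each gene was read from the probe whose mean level across all 8 arrays was highest. Only promoter coordinates are given, in GRCh38.p14. Probes were kept if well above background on at least 1 of the 3 arrays (24075 probes, with 870 falls and 680 rises, 13823 genes). With 1 array per condition no test was possible and sizes were called by a 2-fold rule. Simulated data with large steps or none checked only the calculation. They held no steps near 2-fold and no background floor, so they do not show how often the rule errs here. A bound was set at the lowest level among probes well above background on the array, or the gene's own value if higher.

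Some genes the rule named are not reported here. Members and gene lists were chosen with earlier results of these data known. Named were the 10 protein-coding genes with the largest falls and rises by the smaller difference, with signals below background at face value, up to 4 per list and direction, genes of the study (CDKN1A, MDM2, TNFSF9, CDC42BPG, FST) and cell type markers, and genes said to be added after their values were seen, as were list members that missed the rule. The other settings were median scaling, quantile normalization, no scaling, normexp (offset 50) with quantile normalization, 2 other background filters, the mean of all probes, a signal floor, either early array left out and a 3-fold rule. The tools were R 4.3.3 with limma 3.58.1 for the normexp setting and, for all else, Python 3.11.15 with numpy 2.4.6, pandas 2.3.3 and matplotlib 3.10.9. Precision is limited by having 1 array per condition.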

Additional observations from a re-analysis of the deposited data

Results flagged for a closer look

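The lists of mitosis genes had late steps of opposite sign in the genotypes, as each of their medians was negative with p53 and positive without it. The median late step of mitotic kinases and cyclins was -3.23 in p53+/+ cells and 0.40 in p53-/- cells. For kinetochore and centromere genes it was -3.53 and 0.26, for spindle and cytokinesis genes -4.28 and 0.51, and for the anaphase-promoting complex, cohesin and condensin -2.11 and 0.19. Over the 4 lists together the medians were -3.34 and 0.35. Each genotype had 1 array at each time, so the difference was not tested. The p53+/+ 48 h array is the array without spike-in signal, and the part of this in the difference was not tested.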

How the results depend on the processing

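In these settings 0 of the called genes were called in the opposite direction. An opposite call could not arise where the same levels were kept under another filter, rule or choice of arrays. Nor could it arise where scaling shifted all genes of an array alike, so for those settings the count shows nothing. Of 36 list medians, 18 were of both signs among the settings, all with a median between -0.40 and 0.19 at the setting reported. Against 549 late falls and 330 late rises, there were 853 and 170 without scaling (83.4% falls against 62.5%, with the median of all genes at -0.19 instead of 0.12), and 296 and 85 with normexp and quantile normalization (77.7% falls), where 290 of the falls and 85 of the rises were kept. With genes above background on all 3 arrays there were 333 and 129, and without a filter 604 falls and 772 rises, of which 43.9% were falls. Without the 12 h array there were 879 and 689, without the 24 h array 966 and 956, and under the 3-fold rule 304 and 112. The median of the mitosis lists, -3.34, was -3.64 without scaling, -2.0 with normexp and quantile normalization, -2.39 above background on all 3 arrays and -2.97 with the signal floor. That of DNA replication, -1.66, was -1.97, -1.17, -1.33 and -1.50 in these settings, -1.55 with the mean of all probes, -1.41 without the 12 h array and -1.78 without the 24 h array. The causes were not tested. No paired analysis was possible because each condition had 1 array and the labels give no replicate numbers. The signal over background limits the size of 216 falls that were not well above background at 48 h.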

Other observations

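The genes named in this section lie outside the lists and were chosen after their values were seen. Those of this paragraph were above background on all 3 arrays. PCLAF, a PCNA-binding factor, read 3.54, 3.60 and -1.91 at 12, 24 and 48 h over 10 spots, 44.8-fold lower at 48 h. CDKN3, a phosphatase of cyclin-dependent kinases, read 1.25, 0.93 and -4.05, 35.1-fold lower, and ASF1B, a histone chaperone, read 1.22, 0.34 and -3.47 over 10 spots, 19.1-fold lower. APOBEC3B, a cytidine deaminase that edits single-stranded DNA, went up from 0.38 at 12 h to 2.08 at 24 h before reading -3.54 at 48 h, 27.2-fold below the earlier mean, while its late step in p53-/- cells was 0.92.

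Of 542 long non-coding RNA genes examined, 13 were late falls (2.4%, against 3.97% of all genes) and 29 late rises (5.35%, against 2.39%). LINC01704 read 1.08, 1.06 and -1.24, 4.97-fold lower, and TMPO-AS1 read -3.17, -2.89 and -6.01, the last not well above background. MIR31HG, the host transcript of a microRNA, read -3.52, -3.51 and -1.85, 3.17-fold higher, and MIRLET7BHG read -0.28, -0.05 and 1.15, 2.49-fold higher. Both had late steps below 0 in p53-/- cells, -0.76 and -0.57, and the difference was not tested.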
